A study of Mus musculus with 9 samples.

Results

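The dual-specificity MAP kinase phosphatases examined here are 9 genes, Dusp1, Dusp2, Dusp3, Dusp4, Dusp5, Dusp6, Dusp7, Dusp10 and Dusp16, out of 18193 genes that the arrays name through at least 1 probe set. They were chosen by name, through the gene symbol that the platform's annotation gives a probe set. A probe set is a group of short probes that together give 1 value for a transcript, and some probe sets match several transcripts. Where a gene had several probe sets, the brightest on average stood for it, and the others were checked against it. The cells came from spleens of C57BL/6 mice: adherent spleen cells selected with magnetic beads for the integrin CD11b, which the labels also call monocytes, hybridised to Affymetrix MOE430 arrays. The threat group (HighThreat) was 6 animals of a study of repeated social threat, with 1 array for each animal. The control group (LowThreat) was 3 arrays, each of a pool of 2 animals, so a control value already averages 2 animals and the spread among pools is not the spread among animals. Age and sex are not given for either group.

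MAP kinases (ERK, JNK and p38) are switched on by phosphorylation of a threonine and a tyrosine in their activation loop, and dual-specificity phosphatases switch them off by removing both phosphates. Dusp1, Dusp2, Dusp4 and Dusp5 encode nuclear enzymes, and Dusp6 and Dusp7 encode cytoplasmic enzymes that prefer ERK. Dusp10 and Dusp16 encode enzymes that prefer JNK and p38. Transcription of several of the phosphatase genes is itself induced by MAP kinase signalling, and the groups used here are not defined by it. Dusp3 encodes a small atypical member that lacks the kinase-binding domain of the others. In macrophages Dusp1 is known as a brake on p38 and JNK after stimulation through Toll-like receptors, and so on the output of inflammatory cytokines.

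Of the 9 genes, 6 were lower in threat animals, 2 were higher and 1 did not pass the test. All 4 genes of the nuclear enzymes, Dusp1, Dusp2, Dusp4 and Dusp5, fell. Dusp5 fell most, to 45.4% of the control level. The JNK and p38 phosphatase genes moved apart, with Dusp16 at 190% of the control level and Dusp10 at 59.5%. Among the cytoplasmic ERK phosphatase genes, Dusp6 rose 1.35-fold and Dusp7 fell 1.10-fold, the latter a call that the loss of 1 array could end and whose direction turned when arrays were centred on ribosomal protein genes. Dusp3 differed by 0.04 on the log2 scale in its brightest probe set and did not pass.

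These counts stand against a wide difference between the groups. With limma and a Benjamini-Hochberg adjusted p under 0.05, 45.8% of the 13078 genes tested were called, 23.8% as higher and 22.0% as lower in threat animals. Threat animals and control pools were fully separated in 8 of the 9 phosphatase genes, and in 41.8% of all genes tested. The median absolute difference was 0.75 on the log2 scale for the 9 genes and 0.15 for all genes tested. The median signed difference was -0.51 for the 9 genes and 0.029 for all. In bulk samples fewer cells of a type and less RNA per cell cannot be told apart. All levels and differences below are on the log2 scale of the deposited values, where a difference of 1 is a doubling.

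**Figure D1:**
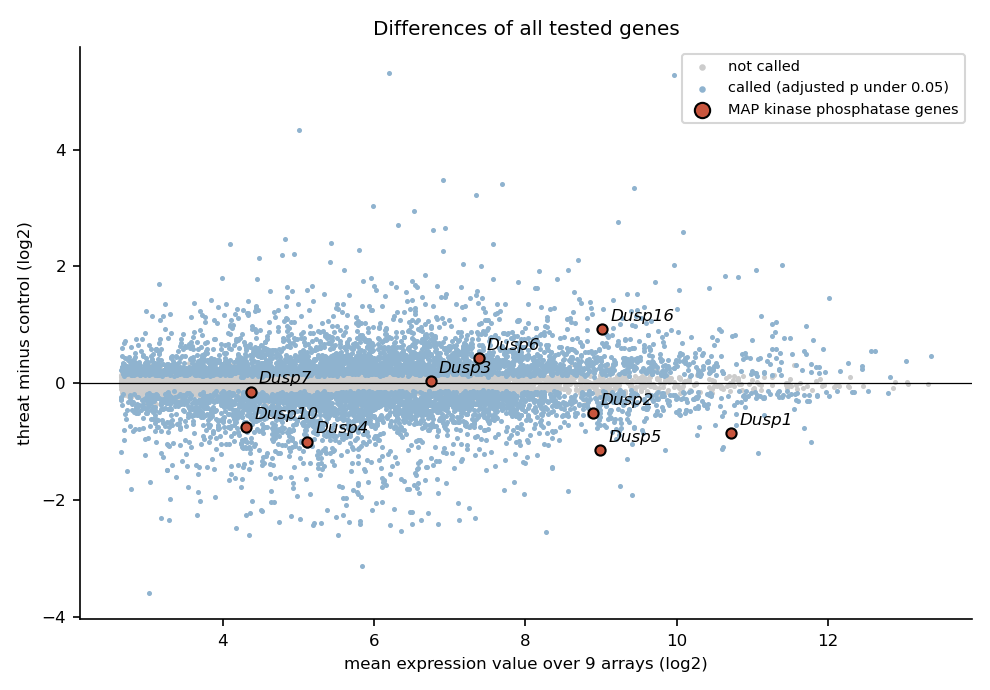
Threat minus control difference (log2) of each of the 13078 genes tested against its mean expression value over the 9 arrays (log2), with genes past an adjusted p of 0.05 in blue, the others in grey and the 9 phosphatase genes in red. Dusp5 lies lowest of the 9 at -1.14 and Dusp16 highest at 0.92, while Dusp3 and Dusp7 lie near 0.

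The stretch of DNA before the transcription start is shown for Dusp1, an inducible gene. It is also shown for Dusp5, the gene of the largest fall, and for Dusp16, the gene of the largest rise. Windows of 250 bases before the annotated start were read from RefSeq promoters of mouse assembly GRCm38.p6, which held 8 of the 9 genes; Dusp4 was not among them. They run 5′ to 3′ on the strand of the gene. Capitals mark the cAMP response element TGACGTCA, which the transcription factor CREB binds, its core TGACG, or the CArG box, which the serum response factor binds, on either strand.
Dusp1 (chr17:26508473-26508722, minus strand): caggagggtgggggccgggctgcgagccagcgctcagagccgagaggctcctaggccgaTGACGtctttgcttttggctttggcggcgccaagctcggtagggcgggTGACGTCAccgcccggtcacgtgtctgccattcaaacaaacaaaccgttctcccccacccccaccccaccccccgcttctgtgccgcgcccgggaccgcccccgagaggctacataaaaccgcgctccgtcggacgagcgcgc
Dusp5 (chr19:53528895-53529144, plus strand): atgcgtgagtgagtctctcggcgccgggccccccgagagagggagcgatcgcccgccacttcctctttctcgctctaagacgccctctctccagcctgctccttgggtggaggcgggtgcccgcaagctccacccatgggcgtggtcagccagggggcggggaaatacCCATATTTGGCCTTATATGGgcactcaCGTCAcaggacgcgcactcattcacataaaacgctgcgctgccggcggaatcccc
Dusp16 (chr6:134792629-134792878, minus strand): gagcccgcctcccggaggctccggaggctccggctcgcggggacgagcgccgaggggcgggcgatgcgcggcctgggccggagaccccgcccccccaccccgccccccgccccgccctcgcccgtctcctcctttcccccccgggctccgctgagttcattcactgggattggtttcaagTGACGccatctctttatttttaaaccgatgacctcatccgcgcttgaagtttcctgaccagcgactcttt

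The full element TGACGTCA occurred in the window of Dusp1, with its first base 143 bases before the start, and in none of the other 7 windows. It occurred in 1.55% of 32851 promoter windows of that length. The core TGACG, which the full element contains, occurred in the windows of Dusp1, Dusp5 and Dusp16 and in 17.8% of all. The CArG box was added to the search after the windows had been seen. It occurred in Dusp5 alone of the 8, as 2 adjoining copies that begin 82 and 72 bases before the start, and in 1.47% of all windows. The GC box GGGCGG was found in 6 of the 8 windows and 32.7% of all. The TATA box TATAAA (12.4% of all), the AP-1 element TGANTCA (6.75%) and the core AGAACA of the glucocorticoid response element (16.1%) were in none of the 8. GC content ran from 56.4% in Dusp6 to 77.2% in Dusp7, with a median of 52.4% over all windows. Matches describe the letters of these windows only. The core TGACG was present in Dusp1 and Dusp5, which fell, and in Dusp16, which rose.

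Dusp1, the gene of MKP-1, had values of 11.33, 11.29 and 11.25 in control pools 1-2, 3-4 and 5-6. In the 6 threat animals it ran from 10.34 over a median of 10.42 to 10.53. The groups lay 0.72 apart at their closest, and the whole spread of the threat animals was smaller than that gap. The difference was -0.85 (SE 0.051, adjusted p = 4.0e-08), from 11.29 ± 0.038 (SD, n = 3) to 10.43 ± 0.065 (SD, n = 6), which leaves 55.3% of the control level. It was the 385th largest fall of the 13078 genes.

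Dusp5, whose enzyme acts on ERK in the nucleus, was at 9.73, 9.77 and 9.73 in the control pools. Threat animals ran from 8.52 over a median of 8.63 to 8.66. Every threat animal lay over 1 unit below every control pool, the widest gap among the 9 genes (1.06). The difference was -1.14 (SE 0.049, adjusted p = 2.9e-09), a 2.20-fold fall and the 220th largest of all genes tested. Dusp5 was the only one of the 9 genes to differ at least 2-fold, as 3.96% of all genes tested did.

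Dusp4, which encodes MKP-2, an enzyme of ERK and JNK, was dimmer, with control values of 5.91, 5.63 and 5.82. Its threat values went from 4.63 over a median of 4.81 to 4.93. The control pools spread more than for Dusp1 or Dusp5 (SD 0.14), yet the lowest of them was 0.70 above the highest threat animal. The difference was -0.998 (SE 0.074, adjusted p = 2.9e-07), which leaves 50.1% of the control level.

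Dusp2, the gene of PAC-1, a phosphatase of activated leukocytes, had the smallest fall among the genes of the nuclear enzymes. Control pools were at 9.21, 9.14 and 9.33, and threat animals ran from 8.63 over a median of 8.72 to 8.77. Here the control pools varied more than the threat animals (SD 0.097, n = 3, and 0.048, n = 6), and the groups were 0.37 apart. The difference was -0.51 (SE 0.053, adjusted p = 6.4e-06), a 1.42-fold fall. It was -0.30 (adjusted p = 0.0018) when arrays were centred on ribosomal protein genes.

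**Figure D2:**
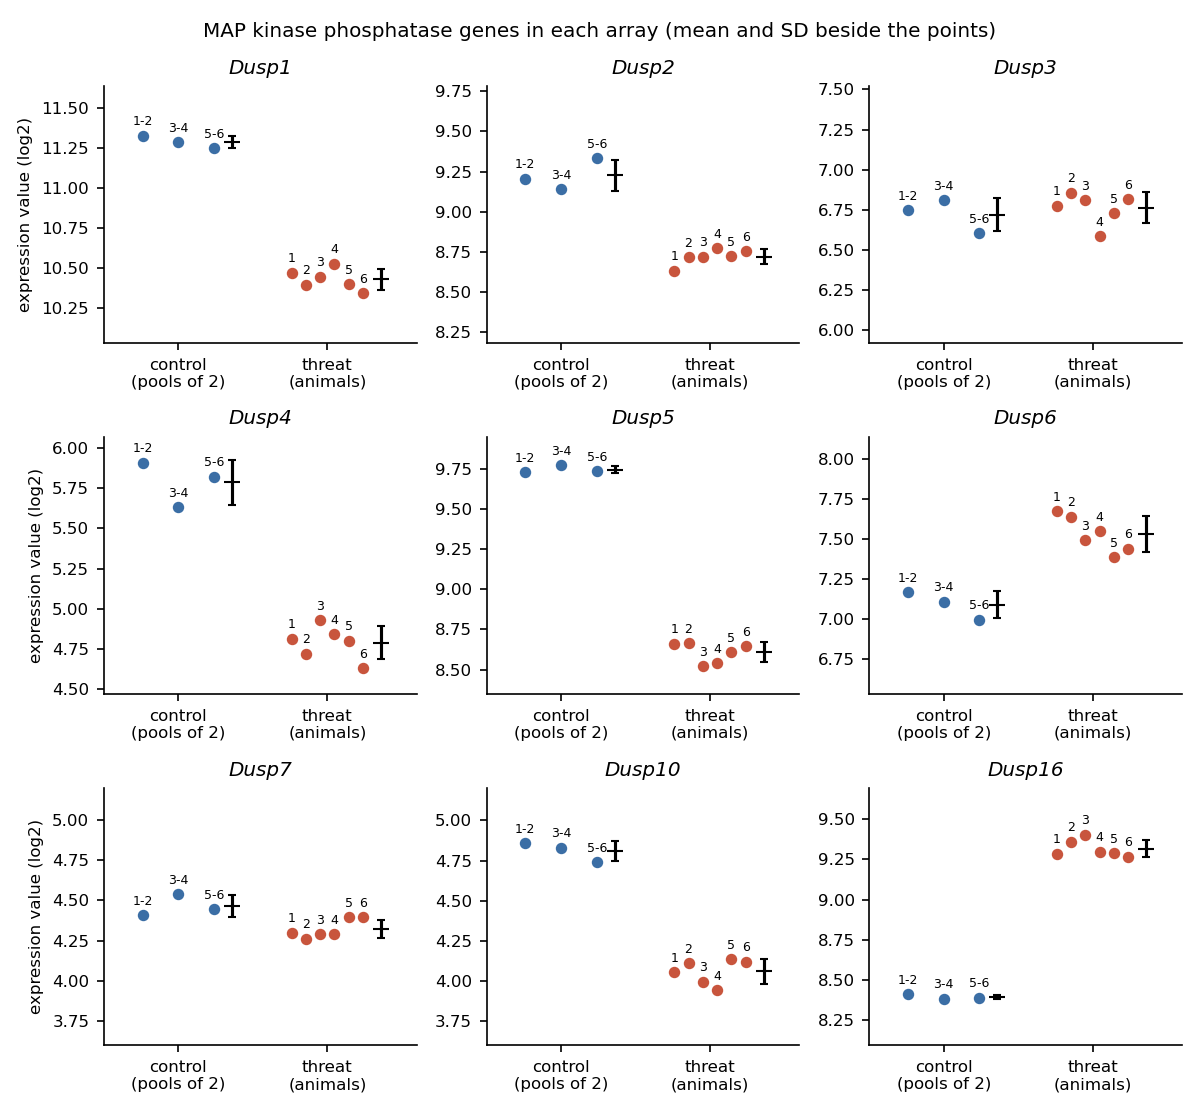
Expression value (log2) of each of the 9 genes in each array, with control pools in blue and threat animals in red, labelled with their numbers, and the mean and SD of the group beside the points; each panel has its own axis, with at least 1.6 units shown. Dusp1, Dusp2, Dusp4, Dusp5 and Dusp10 lie lower in every threat animal than in any control pool, Dusp6 and Dusp16 lie higher, Dusp7 is separated by 0.013 in the values as deposited, and Dusp3 overlaps.

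Of the genes whose enzymes prefer JNK and p38, Dusp16, which encodes MKP-7, was the one that rose. In its brighter probe set (1418401_a_at) the control pools were nearly identical at 8.41, 8.38 and 8.39, and threat animals ran from 9.27 over a median of 9.29 to 9.41. The difference was 0.92 (SE 0.047, adjusted p = 1.1e-08), a 1.90-fold rise and the 268th largest rise of the 13078 genes. A second, dimmer probe set of the gene (1440615_at) was at 4.47, 4.53 and 4.97 in the control pools and from 5.26 over a median of 5.70 to 5.97 in threat animals. It rose by 1.00 (SE 0.18, adjusted p = 0.0011 over 27022 probe sets), and the groups did not overlap.

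Dusp10, the gene of MKP-5, moved the other way. It was at 4.86, 4.83 and 4.74 in the control pools and from 3.95 over a median of 4.08 to 4.14 in threat animals. All threat animals lay at least 0.60 below the control pools, and the difference was -0.75 (SE 0.056, adjusted p = 3.0e-07). Its other probe set (1417163_at) had a mean of 2.78, close to the filter value of 2.66 under which signal was taken as too dim to test. That probe set differed by -0.35 (SE 0.14, adjusted p = 0.0661), its groups overlapped, and control pool 3-4 (3.38) stood above pools 1-2 (2.86) and 5-6 (2.80).

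Among the cytoplasmic ERK phosphatases, Dusp6, which encodes MKP-3, was at 7.17, 7.11 and 6.998 in the control pools and from 7.39 over a median of 7.52 to 7.67 in threat animals. The groups did not overlap, with 0.22 between the lowest threat animal and the highest control pool. The difference was 0.44 (SE 0.069, adjusted p = 2.0e-04), a 1.35-fold rise. Under limma's treat test against a change of 1.2-fold, Dusp6 no longer passed (adjusted p = 0.0752).

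Dusp7, whose enzyme MKP-X shares the preference for ERK, was at 4.41, 4.54 and 4.44 in the control pools and from 4.26 over a median of 4.30 to 4.40 in threat animals. The groups were separated by 0.013, less than the SD of either (0.068 and 0.058). The difference of -0.14 (SE 0.052) passed narrowly over all genes (adjusted p = 0.0399) and did not pass over all probe sets (adjusted p = 0.0510). Omitting control pool 3-4 (adjusted p = 0.171) or 5-6 (0.0645) ended the call. Omitting any of threat animals 1 (0.0642), 2 (0.0703), 3 (0.0705) or 4 (0.0698) ended it as well. With arrays centred on ribosomal protein genes the difference was 0.070 (adjusted p = 0.310), of the opposite sign. The other probe sets of Dusp7 (1427416_x_at and 1460393_a_at), with means of 2.50 and 2.49, were under the filter value and were not tested.

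The 3 probe sets of Dusp3, the atypical member also called VHR, did not give 1 answer. The brightest (1434472_at) was at 6.75, 6.81 and 6.61 in the control pools and from 6.59 over a median of 6.79 to 6.86 in threat animals, so the groups overlapped. Its difference was 0.04 (SE 0.067, 95% interval from -0.10 to 0.19, adjusted p = 0.648). The next (1456769_at) was at 5.70, 5.90 and 5.32 in the control pools and between 6.08 and 6.27 in threat animals, and rose by 0.52 (SE 0.10, adjusted p = 0.0019). The dimmest (1425608_at) was at 5.04, 5.03 and 4.85 in the control pools and between 5.33 and 5.60 in threat animals, and rose by 0.46 (SE 0.076, adjusted p = 6.0e-04). The groups did not overlap in either of the dimmer probe sets. Averaged over the 3, Dusp3 rose by 0.34 (adjusted p = 0.0014). Which transcripts each probe set matches was not tested.

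Of the 15 probe sets that name the 9 genes, 13 were bright enough to test and 10 were called, against 39.8% of all probe sets tested. The 5 genes Dusp1, Dusp2, Dusp4, Dusp5 and Dusp6 have 1 probe set each (1448830_at, 1450698_at, 1428834_at, 1437199_at and 1415834_at, in that order), so their differences rest on a single measurement of the transcript per array.

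**Figure D3:**
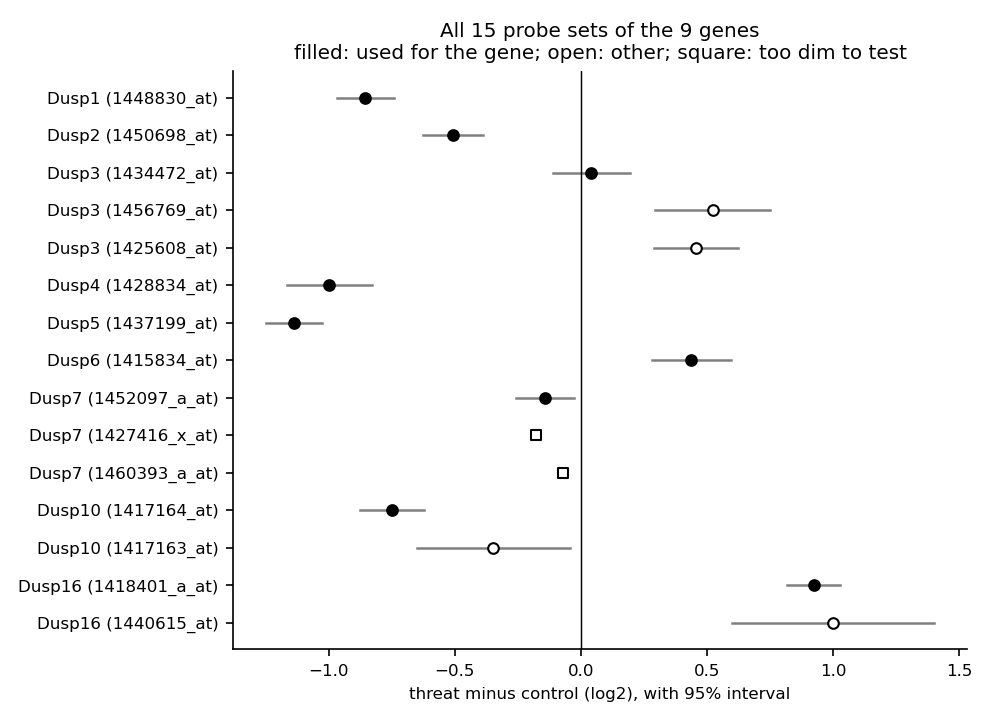
Threat minus control difference (log2) of the 15 probe sets, named by gene and probe set, with limma's 95% interval. Filled circles are the probe sets used for the gene, open circles the others and open squares those too dim to test, which have no interval; the probe sets of Dusp16 and of Dusp10 share a direction, while the brightest of Dusp3 lies at 0.04 and its others at 0.52 and 0.46.

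The arrays that were high or low within a group were not the same for each gene. Among threat animals, animal 6 had the lowest Dusp1 and Dusp4, animal 1 the lowest Dusp2 and the highest Dusp6, animal 3 the lowest Dusp5 and the highest Dusp16, and animal 4 the lowest Dusp10. The SD among the 6 threat animals ran from 0.048 for Dusp2 to 0.11 for Dusp6, and the median over all genes tested was 0.085.

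Markers of other cell types differed between the same arrays, and their part in these differences was not tested. Itgam, the gene of CD11b on which the cells were selected, was at 7.93 ± 0.026 in control pools (SD, n = 3) and rose by 0.57 (SE 0.051, adjusted p = 1.7e-06). In a list of granulocyte and precursor genes 14 of 15 tested rose and none fell, and the mean of the list per array was between 8.54 and 8.69 in control pools and between 9.93 and 10.38 in threat animals. Elane, a protease gene of granulocyte precursors, rose by 2.62 (SE 0.17, adjusted p = 7.8e-08). The mean of the B cell list went from between 7.14 and 7.35 to between 5.22 and 5.62, with 9 of 10 genes lower, and Cd79a, a subunit of the B cell receptor, fell by 2.31 (SE 0.097, adjusted p = 2.3e-09). That of the natural killer cell list went from between 5.53 and 5.67 to between 3.53 and 3.72, with 8 of 9 lower. Ncr1, a defining receptor of natural killer cells, was near the filter value in both groups (2.96 and 2.87). In the dendritic cell list 9 of 11 genes were lower, in the plasma cell list 5 of 6 and in the T cell list 6 of 9. In the macrophage list 8 of 14 were lower and 2 higher, in the monocyte list 4 of 8 lower and 3 higher, and in the platelet and erythroid list 5 of 7 higher. RMA gives no value of 0, and the plasma cell gene Tnfrsf17, the T cell genes Cd3g and Cd28 and the globin gene Hba-a1 were under the filter value. RNA quality was read from beta-actin, whose 3' probe set exceeded its 5' probe set by 0.472 ± 0.063 in control pools (SD, n = 3) and by 0.357 ± 0.034 in threat animals (SD, n = 6; two-sided exact permutation p = 0.0238 over 84 divisions). For Gapdh the same measure differed by -0.036 between the groups (exact permutation p = 0.512).

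Within the 6 threat animals each of the 9 genes was compared with the granulocyte and the B cell mean, 18 relations in all. Both means ranked the animals in the same order, 1, 2, 3, 4, 6 and 5 from highest to lowest. A gene's relations with the granulocyte and the B cell mean are therefore not independent, and its rho is the same for both. That order also nearly follows the animal numbers. None passed an adjusted p of 0.05, and 3 had an unadjusted exact permutation p under 0.05. Dusp6 followed the granulocyte mean with Pearson r = 0.93 (two-sided exact permutation p = 0.0167, adjusted 0.15) and Spearman rho = 0.94 (exact permutation p = 0.0167, adjusted 0.15). Without the 2 animals farthest from the median of that mean, animals 5 and 6, r was 0.84. With the B cell mean, Dusp6 gave r = 0.95 (exact permutation p = 0.0153, adjusted 0.15) and rho = 0.94 (exact permutation p = 0.0167, adjusted 0.15). That r came to 0.88 when the 2 animals farthest from the median of the B cell mean, animals 1 and 5, were left out. For Dusp7 and the granulocyte mean r was -0.91 (exact permutation p = 0.0333, adjusted 0.2) and rho -0.64 (exact permutation p = 0.2, adjusted 0.6). Its r fell to near 0 (0.074) when animals 5 and 6 were left out, so that relation rests on them. Dusp7 and the B cell mean gave r = -0.87 (exact permutation p = 0.0583, adjusted 0.262), which came to -0.93 with animals 1 and 5 omitted. Animal 6 stayed in that last r, so it does not show the B cell relation to be the firmer. Dusp7 was 4.40 in animals 5 and 6 and between 4.26 and 4.30 in the others. For Dusp1, Dusp5 and Dusp16 r with the granulocyte mean was 0.55, 0.053 and 0.45 (exact permutation p = 0.253, 0.926 and 0.357), and with 2 animals omitted it was -0.42, 0.86 and -0.30.

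The genes most like Dusp5 over the 9 arrays, by the root mean square difference of values centred on each gene's mean, were the MHC class II genes H2-Eb1 (0.036) and H2-Ab1 (0.049) and the amino acid transporter gene Slc7a1 (0.051). This measure includes the difference between the groups, so genes chosen by it differ by nearly as much as Dusp5 or Dusp16. H2-Eb1 fell by 1.195 (SE 0.044), H2-Ab1 fell by 1.09 (SE 0.052) and Slc7a1 fell by 1.13 (SE 0.049). Nearest to Dusp16 were Apobr, a receptor gene for apolipoprotein B (0.039), 6530402F18Rik (0.040) and the calcium-binding gene S100a6 (0.046), which rose by 0.95 (SE 0.056), 0.91 (SE 0.050) and 0.88 (SE 0.046).

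Of 16 other dual-specificity phosphatase genes listed, 13 were bright enough to test, of which 2 were higher, 3 lower and 8 not called, with a median difference of 0.0063. Dusp8 and Dusp9, the remaining genes with a kinase-binding domain, differed by 0.046 (adjusted p = 0.528) and 0.055 (adjusted p = 0.472). The smallest p of the list was that of Styx, a catalytically inactive relative, which fell by 0.52 (SE 0.050, adjusted p = 3.1e-06). Dusp13 was dim and fell by 0.20 (SE 0.052, adjusted p = 0.0070), but with ribosomal centring its difference was 0.010, of the opposite sign and not called (adjusted p = 0.874). Dusp11, the brightest, which acts on RNA, rose by 0.18 (SE 0.047, adjusted p = 0.0078). That the 9 genes differ from these was not tested. Of the tyrosine phosphatases of MAP kinases 1 was tested, Ptpn5, at 3.53 in control and 3.62 in threat arrays (adjusted p = 0.297). It was called as higher with the mean of its probe sets (0.12, adjusted p = 0.0459) and with ribosomal centring (0.30, adjusted p = 0.0015).

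The substrates of these enzymes moved in both directions. Of 9 MAP kinase genes tested 4 rose and 3 fell, with a median of 0.19. Mapk13, which encodes p38 delta, a form that neutrophils carry, rose by 2.27 (SE 0.078, adjusted p = 5.7e-10), from 5.41 to 7.67. Mapk14, which encodes p38 alpha, the form that Dusp1, Dusp10 and Dusp16 act on, rose by 0.67 (SE 0.046, adjusted p = 1.5e-07). The other p38 genes did not share this: Mapk11 (p38 beta) fell by 0.31 (SE 0.061, adjusted p = 0.0011), and Mapk12 (p38 gamma) differed by 0.17 (adjusted p = 0.123). Mapk7, the gene of ERK5, rose by 0.60 (SE 0.075, adjusted p = 2.9e-05). Mapk8, the gene of JNK1, rose by 0.19 (SE 0.060, adjusted p = 0.0182), a call lost without control pool 3-4 (adjusted p = 0.0781) and with the mean of its probe sets (0.041, adjusted p = 0.651). Mapk6, the brightest, which encodes the atypical ERK3, fell by 0.37 (SE 0.047, adjusted p = 3.7e-05).

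Upstream kinases were split. Of 5 MAP kinase kinase genes 2 rose and 1 fell: Map2k3, an activator of p38 and the brightest, fell by 0.51 (SE 0.049, adjusted p = 3.0e-06), and Map2k4, an activator of JNK and p38, rose by 0.28 (SE 0.055, adjusted p = 0.0012), or differed by 0.036 (adjusted p = 0.751) with the mean of its probe sets. Of 12 genes of RAF and other kinases at the head of the cascades 4 rose and 4 fell. Map3k1 and Map3k14, kinases of the JNK and the non-canonical NF-kappaB pathway, fell by 1.36 (SE 0.070) and 1.31 (SE 0.074). Map3k8, the kinase TPL2 that activates ERK downstream of Toll-like receptors, rose by 0.77 (SE 0.047, adjusted p = 5.0e-08).

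Of 7 genes of kinases that MAP kinases activate, 1 rose and 4 fell. Mapkapk2, the gene of MK2, which stabilises cytokine mRNA downstream of p38, rose by 0.44 (SE 0.051, adjusted p = 1.4e-05). Mapkapk3, the gene of MK3, fell by 0.42 (SE 0.054, adjusted p = 3.8e-05). Mknk2, a kinase of the translation factor eIF4E, fell by 1.19 (SE 0.057, adjusted p = 7.0e-09). Of 7 scaffold genes Spag9, the JNK scaffold JIP4, fell by 0.80 (SE 0.050, adjusted p = 6.6e-08), Ksr1 of the ERK cascade rose by 0.29 (SE 0.058, adjusted p = 0.0012), and 5 were not called. Ksr1 differed by 0.11 (adjusted p = 0.128) where probe sets specific to 1 transcript were preferred.

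Of 5 tested genes of the Sprouty and Spred proteins, feedback inhibitors of the ERK cascade, 2 fell and 3 were not called. Spry2 fell by 1.48 (SE 0.14, adjusted p = 2.8e-06) from 4.26 to 2.78, close to the filter value, so the size of its fall is approximate. Spred1 fell by 0.14 (adjusted p = 0.0456), a call lost without any of the control pools or threat animal 1, 2, 3 or 4 (adjusted p from 0.0535 to 0.153) and of the opposite sign with ribosomal centring (0.069).

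The immediate early genes that signalling and cell handling induce, as they do Dusp1, were mostly lower. Of 22 tested 16 fell, none rose and 6 were not called, with a median of -0.27, and the mean of the list per array was between 8.75 and 8.78 in control pools and between 8.15 and 8.27 in threat animals. Fos, a target of ERK signalling and a subunit of AP-1, fell by 1.26 (SE 0.076, adjusted p = 4.4e-08), and Egr1, another, by 0.68 (SE 0.11, adjusted p = 2.2e-04). Klf4 fell by 1.33 (SE 0.057), and the heat shock gene Hspa1b, uncertain because of its near-identical copy Hspa1a, by 2.12 (SE 0.073). Zfp36, the brightest of the list, which encodes a factor that destabilises cytokine mRNA, differed by -0.14 (adjusted p = 0.142).

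**Figure D4:**
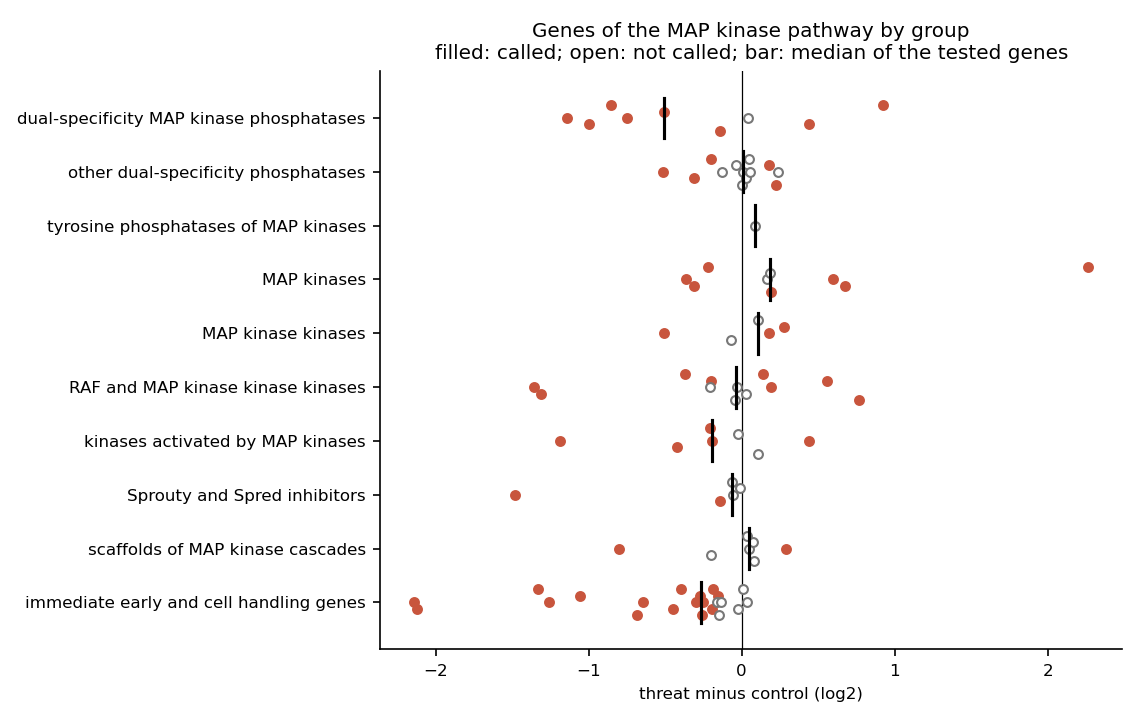
Threat minus control difference (log2) of each tested gene of the MAP kinase pathway, by group, with called genes filled, others open and the median of each group as a bar. The phosphatase genes spread from -1.14 to 0.92 around a median of -0.51, the other dual-specificity phosphatases lie around 0.0063, and Mapk13 lies apart among the MAP kinases at 2.27.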

How the data were processed

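The authors deposited log2 expression values, which RMA produced per the submitters' processing notes. RMA corrects background, equalises distributions between arrays and summarises probes, so it hides differences in total RNA. No version or setting of RMA is given in the sources used here. The range of the values, 0.607 to 13.567, gave the log base. Array medians lay between 3.19 and 3.22.

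Symbols of the platform's annotation were updated by Entrez number to RefSeq genes of GRCm38.p6. Genes entered the test if the mean of their brightest probe set reached the 40th percentile of probe sets (2.66). Threat minus control was fitted with limma 3.58.1 in R 4.3.3 over all genes (lmFit and eBayes, two-sided, equal weights), with Benjamini-Hochberg adjustment over all genes, and separately over all probe sets. SE is limma's moderated standard error. The limma fit was tested on simulated data, and the correlation measure on values of a known relation. The number of arrays limits the precision.

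The members and gene lists were chosen with earlier results of these data known. Named genes beside the members are, from each pathway list, the 2 with the smallest p and the brightest, a few fixed names, the 3 genes nearest to the members of largest rise and fall, and, from marker lists, fixed names and the brightest. Ptpn7 was among the fixed names and is not analysed here. Dusp8, Dusp9, Mapk7, Mapk11, Mapk12, Mapkapk3 and Hspa1a were named outside this rule after their values were seen. Alternatives covered filters, probe set choice, normalization, limma settings, number pairs and leaving out each array.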

Additional observations from a re-analysis of the deposited data

Results flagged for a closer look

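Among the 9 members and 44 other named genes, 2 had a threat animal far from the other 5. Chance alone gives about 1 in 20, so this count is no more than chance gives. Slc7a1, a gene near Dusp5 in pattern, was 6.94 in threat animal 1 and between 6.82 and 6.84 in the others. Ptpn5 was 3.75 in threat animal 6 and between 3.58 and 3.64 in the others, at a level where signal is dim. None of the 9 phosphatase genes had such an animal.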

How the results depend on the processing

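The differences of Dusp1, Dusp2, Dusp4, Dusp5, Dusp10 and Dusp16 kept their direction and their call under all 22 alternatives, with adjusted p up to 0.0028. Dusp6 kept its direction under all 22 and lost its call in 1, the treat test at 1.2-fold. Dusp7 lost its call in 14 and changed sign in 1 (0.070 with arrays centred on ribosomal protein genes). Dusp3 was called with the mean of its probe sets (0.34) and with ribosomal centring (0.25), and without each array in turn lay between -0.017 (without control pool 5-6, adjusted p = 0.884) and 0.086. Ribosomal centring raised the median difference of all genes from 0.029 to 0.24 and called 9978 genes, 85.6% of them higher against 52.0% in the reported fit. The treat test called 2162 genes, 1045 higher and 1117 lower, and 6 members, 1 higher and 5 lower. Leaving out each array in turn gave 5310 to 5806 called genes, with 7 or 8 of the 9 members.

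Threat animals averaged in number pairs, with the number pair as replicate block, gave 5194 called genes and 7 members. Deviations of control pools and of threat pairs with the same numbers correlated at 0.15, -0.15 and -0.029. Control pool 1-2 correlated best with its own number, and the control pools 3-4 and 5-6 did not. With so few arrays these values cannot decide whether the numbers pair the arrays. Of 44 other named genes, sign changed under ribosomal centring for Dusp13 (0.010), Hmox1 (0.010), Ncr1 (0.12), Spred1 (0.069) and Zfp36 (0.076), and with transcript-specific probe sets for Xbp1 (0.026). The cause was not tested. RMA gives no detection call, so values near 2.66, as for the second probe sets of Dusp10 and Dusp7, have only an approximate size.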
